A study of Mus musculus with 4 samples.

Results

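Lymphocytes sense interleukins through surface receptors built from a few shared chains, and 10 genes for such chains are described here across the immune cells of the mouse liver. The genes are Il2ra, Il2rb, Il2rg, Il7r, Il15ra, Il12rb1, Il12rb2, Il18r1, Il18rap and Il21r. They were taken by symbol, and they are 10 of the 32285 genes in the matrices. CD45+ liver cells of female C57BL/6 mice were sorted and measured by 10x Genomics 5′ single-cell RNA sequencing in 4 libraries, 1 per condition, in a study of the miRNA miR-146a in a mouse model of liver cancer. The 3 treated libraries came from mice of 36 weeks by the labels. These mice received N-diethylnitrosamine (DEN, a liver carcinogen) at 25 mg/kg by intraperitoneal injection at day 14, were weaned at day 21, and were then fed CDHFD, a high-fat diet lacking choline. They were wild type (DEN-CDHFD WT), lacked miR-146a (DEN-CDHFD miR-146a-/-), or lacked miR-146a and the chemokine gene Ccl5 (DEN-CDHFD DKO). The fourth library came from untreated wild-type mice of 8 weeks (young WT). Age, carcinogen and diet therefore differ together between the young WT library and the others and cannot be told apart. How many mice were pooled for a library is not given.

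The matrices held 10985 cells from young WT, 9120 from DEN-CDHFD WT, 8393 from DEN-CDHFD miR-146a-/- and 10623 from DEN-CDHFD DKO mice. Their totals were 90756272, 103165826, 88706063 and 103147246 unique molecular identifiers (UMIs, each a captured RNA molecule) in that order, which is used for every set of 4 values below. After limits on features and mitochondrial share, 10283, 8329, 7824 and 9850 cells were kept, with medians of 6782, 8210, 7910 and 7558 UMIs. Ccl5 checked the genotype labels: it stood at 6174, 12544, 12496 and 65.4 CPM (UMI counts of a gene scaled to a fixed total) over the kept cells. The library labelled DKO was thus far below the other 3 libraries. The matrices have no entry for the miR-146a gene, so its loss could not be checked.

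As background, the receptors of interleukin-2, interleukin-7, interleukin-15 and interleukin-21 all signal through the common gamma chain, which Il2rg encodes. Il2rb adds the beta chain that the interleukin-2 and interleukin-15 receptors share, and Il2ra and Il15ra encode the alpha chains. The interleukin-15 alpha chain binds its cytokine tightly by itself, while tight binding of interleukin-2 needs the alpha, beta and gamma chains together. Il7r and Il21r encode the chains that bind interleukin-7 and interleukin-21. Il12rb1 and Il12rb2 encode the chains of the interleukin-12 receptor, which signals through STAT4, and Il18r1 and Il18rap encode the chains of the interleukin-18 receptor, which signals through MyD88. Interleukin-12 and interleukin-18 are known to drive interferon-gamma production by NK cells, the type 1 innate lymphoid cells (ILC1) that live in the liver, and T cells.

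Cells were assigned to classes by UMIs of marker genes, none of them a gene of this family, and a class had a value in a library with 30 or more cells. Of 19 gated classes, 12 had a value in all 4 libraries and 17 in at least 1. The gates placed 66.0%, 63.2%, 72.6% and 72.3% of kept cells in a class, and the other cells met no gate or several. A gate that asks for no UMI of a marker is met more often in a shallow cell, so gates were also applied to cells thinned to 2000 UMIs. Levels are given as CPM of the summed UMIs of a class, whose 95% intervals are exact for a Poisson count. Shares of cells are those with a UMI after each cell was thinned to 2000 UMIs. The intervals cover counting error only, and with 1 library per condition no difference between conditions has a replicate check. B cells served as the reference for free RNA for the genes that B cells should lack.

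The group's name, lymphocyte receptors, was checked against the classes. For 8 of the 10 genes the class with the highest mean level was a T, NK or ILC1 class, and for Il15ra and Il21r it was the mature dendritic cells (mature DC), a class with 33 cells and a value in the DEN-CDHFD WT library alone. Within that library Il21r was higher in PD-1+ CD8 T cells (279.5 CPM) than in mature DC (256 CPM). Il2rg was also measured in B cells (mean 525 CPM over 4 libraries) and in patrolling monocytes (278, 292, 258 and 272 CPM). Il7r stood at 258 CPM in the plasmacytoid dendritic cells (pDC) of the young WT library. Il21r was at 188, 196, 152 and 167 CPM in B cells. The name therefore describes most of these genes but not where each was measured.

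The first sequence shown is that of the miRNA that 2 of the 4 libraries lack, since its seed can be looked for in the 3′ untranslated regions (UTRs) of the receptor genes. Capitals mark the seed, bases 2 to 8, of mature miR-146a-5p (RefSeq, GRCm38.p6, chr11:43374435-43374456, minus strand), and below it the 7-letter match AGTTCTC with 10 bases on either side.
miR-146a-5p: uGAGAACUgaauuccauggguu
Il2ra: aaaagcagctAGTTCTCttaaccactg
Il2rb: agaaggattcAGTTCTCtttcaatgat
Il18rap: tctcccagacAGTTCTCagagagaaag
The match lies at base 2157 of the 3411-base UTR of Il2ra and at base 2082 of 2220 in Il2rb. Il18rap has 2 matches in 2617 bases, the first of them, shown here, at base 2190. The other 7 genes have 0 matches, in UTRs from 474 bases (Il2rg) to 2569 bases (Il7r). Of 20903 mouse genes with a UTR in GENCODE M21, 2497 (11.9%) hold the match, with a median UTR of 1090 bases, against 3 of the 10 genes here with a median of 1678 bases. A match describes the sequence and was not tested as a site.

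Promoters are shown for 3 of the 5 genes whose 200 bases before the start overlap no annotated exon, and for each of the 3 NK cells stand at 1 end of the lymphocyte classes in mean level. The other 2, Il2ra and Il2rg, hold 0 matches to the motifs below. Shown are Il12rb2 (chr6:67376189-67376388, minus strand), Il18rap (chr1:40515162-40515361, plus strand) and Il21r (chr7:125603229-125603428, plus strand), from RefSeq GRCm38.p6 and written along the gene's own strand. Capitals mark matches, on either strand, to 4 motifs: TTCNNNGAA for STAT factors, TGTGGT for RUNX factors, TCACAC for T-box factors, and AGATAA, which zinc-finger factors of the GATA family bind.
Il12rb2: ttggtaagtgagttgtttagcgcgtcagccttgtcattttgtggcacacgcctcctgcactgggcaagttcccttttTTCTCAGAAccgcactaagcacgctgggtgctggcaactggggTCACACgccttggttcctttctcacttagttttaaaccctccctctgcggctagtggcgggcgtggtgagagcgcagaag
Il18rap: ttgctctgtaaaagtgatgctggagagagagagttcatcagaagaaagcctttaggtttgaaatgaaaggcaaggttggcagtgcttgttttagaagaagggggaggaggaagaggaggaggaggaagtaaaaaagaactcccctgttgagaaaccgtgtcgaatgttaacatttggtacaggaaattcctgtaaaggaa
Il21r: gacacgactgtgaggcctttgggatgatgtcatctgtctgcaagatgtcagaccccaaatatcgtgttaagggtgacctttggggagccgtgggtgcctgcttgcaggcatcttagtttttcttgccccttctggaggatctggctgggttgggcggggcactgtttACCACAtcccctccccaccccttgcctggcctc
The Il12rb2 window holds 1 match to TTCNNNGAA and 1 to TCACAC, the Il21r window holds 1 to TGTGGT on the other strand, and the Il18rap window holds 0 of the 4. Among 32851 mouse promoter windows of 200 bases, 5.49% hold TTCNNNGAA, 11.2% TGTGGT, 9.85% TCACAC and 7.8% AGATAA. A match says only that these letters are there. Of the 10 genes, 8 had a promoter entry, and Il2rb and Il12rb1 had none.

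Positions are from GENCODE M21 on GRCm38. Il18r1 (ENSMUSG00000026070, chr1:40465552-40500854, plus strand) and Il18rap (ENSMUSG00000026068, chr1:40515362-40551705, plus strand) are neighbours, 14507 bases apart. Il2ra (ENSMUSG00000026770, chr2:11642807-11693193, plus) and Il15ra (ENSMUSG00000023206, chr2:11705290-11734317, plus) are 12096 bases apart, and neither pair has a protein-coding gene between its members. Neighbouring genes were looked up for these pairs alone. The others are Il2rb (ENSMUSG00000068227, chr15:78479256-78495271, minus), Il2rg (ENSMUSG00000031304, chrX:101264378-101268255, minus), Il7r (ENSMUSG00000003882, chr15:9505788-9530176, minus), Il12rb1 (ENSMUSG00000000791, chr8:70808449-70821424, plus), Il12rb2 (ENSMUSG00000018341, chr6:67291318-67376188, minus) and Il21r (ENSMUSG00000030745, chr7:125603429-125633570, plus). Serbp1 overlaps Il12rb2 on the other strand, and since the notes on the files do not say that strand was used in counting, UMIs from the shared stretch are uncertain.

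Among the chains of the interleukin-2 receptor, Il2ra was highest in regulatory T cells (Treg), at 132, 122, 162 and 119.5 CPM. After thinning, between 19.0% and 28.2% of Treg held a UMI, against 0.575, 0.146, 0.879 and 0.441% of B cells, at median depths of 7734, 6689, 7186 and 6340 UMIs in Treg and 5684.5, 6826, 7040 and 6557.5 in B cells. Treg were above every other class in each library, and no CD8 class exceeded 13.6 CPM. NKT-like T cells (80.0, 35.0, 41.3 and 63.2 CPM) and gamma-delta T cells (mean 64.6 CPM over 3 libraries) came next and overlapped. ILC1 followed by mean level (35.3 CPM), but in DEN-CDHFD WT they stood at 60.7 CPM, above NKT-like T cells. NK cells had 4.51, 8.99, 5.84 and 6.25 CPM, against 2.59, 1.86, 5.31 and 1.85 CPM in the B-cell reference.

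Il2rb was highest in ILC1, at 1356, 1485, 1756 and 1633 CPM, and next in NK cells, at 1026, 1076, 1233 and 1158 CPM. ILC1 were above NK cells in each of the 4 libraries, and NK cells above all lower classes. NKT-like (mean 803 CPM) and gamma-delta T cells (mean 775 CPM) followed and were not separated. The 5 other T classes had means between 439 and 572 CPM, and B cells had 34.0, 32.4, 22.8 and 36.3 CPM. The common gamma chain gene Il2rg varied less: means ran from 626 CPM in PD-1+ CD8 T cells to 898 CPM in NKT-like T cells over the T, NK and ILC1 classes. The 5 highest classes, NKT-like T cells, Treg, ILC1, NK and gamma-delta T cells, did not differ beyond their spread over libraries.

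Il7r was highest in naive-like CD8 T cells, at 557, 451, 523 and 543 CPM, above all other classes in each library. NKT-like T cells (mean 358 CPM) and gamma-delta T cells (347 CPM) came next, then Treg (263), pDC (258, young WT alone) and conventional CD4 T cells (247). NK cells (mean 30.4 CPM) and B cells (mean 4.18 CPM) were lowest among lymphocytes, and ILC1 stood at 172, 144, 122 and 132 CPM. Il15ra was low in all lymphocytes: its highest lymphoid level was in PD-1+ CD8 T cells, at 29.4, 25.6, 39.6 and 37.6 CPM, followed without separation by PD-1- non-naive CD8 T cells (mean 30.1 CPM). Mature DC of the DEN-CDHFD WT library stood at 152 CPM (122 to 188), and B cells at a mean of 4.24 CPM.

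Il21r was the most evenly spread of the cytokine-binding chains. Mature DC of the DEN-CDHFD WT library had 256 CPM (216 to 302), and PD-1+ CD8 T cells had 179, 279.5, 189 and 175 CPM. ILC1 (mean 192 CPM), pDC (191), PD-1- non-naive CD8 T cells (180), B cells (176) and Treg (174) followed with overlapping ranges. NK cells stood apart from the other lymphocytes at 50.2, 48.6, 60.6 and 62.0 CPM, below every T class, B cells and ILC1 in each library.

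The interleukin-12 receptor chains differed from each other in where they were high. Il12rb1 was highest in ILC1, at 61.8, 48.5, 55.4 and 54.3 CPM, and PD-1+ CD8 T cells (mean 48.5 CPM), NKT-like T cells (46.1) and conventional CD4 T cells (44.0) were not separated from ILC1 or from one another. Naive-like CD8 T cells were lowest of the T classes (mean 13.2 CPM), and B cells had a mean of 4.31 CPM. Il12rb2 was highest in NK cells, at 395, 310.5, 211 and 212 CPM, with a UMI in 52.7, 47.4, 30.8 and 35.0% of thinned cells. NKT-like T cells (mean 199 CPM), ILC1 (193) and gamma-delta T cells (166) followed, each below NK cells within a library. Treg (24.4 CPM) and PD-1+ CD8 T cells (20.5 CPM) were the lowest T classes, and B cells had 14.0, 5.42, 3.98 and 4.81 CPM.

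Both interleukin-18 receptor chains were highest in NK cells. Il18rap stood there at 349, 238, 245 and 252 CPM, with a UMI in 50.4, 37.0, 40.5 and 40.0% of thinned cells, against 0.903, 0.292, 0.220 and 1.32% of B cells. NK cells were above all other classes in each library, the nearest being gamma-delta T cells (mean 109 CPM) and NKT-like T cells (86.4 CPM). Il18r1 was at 182, 151, 98.6 and 111 CPM in NK cells, but gamma-delta T cells (mean 124 CPM), naive-like CD8 T cells (123), Treg (117) and NKT-like T cells (103) overlapped with them. ILC1 and both non-naive CD8 classes were lower, with means of 40.9, 28.1 and 41.8 CPM in ILC1, PD-1+ and PD-1- cells. B cells had a mean of 3.57 CPM for Il18r1 and 5.26 CPM for Il18rap.

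**Figure D1:**
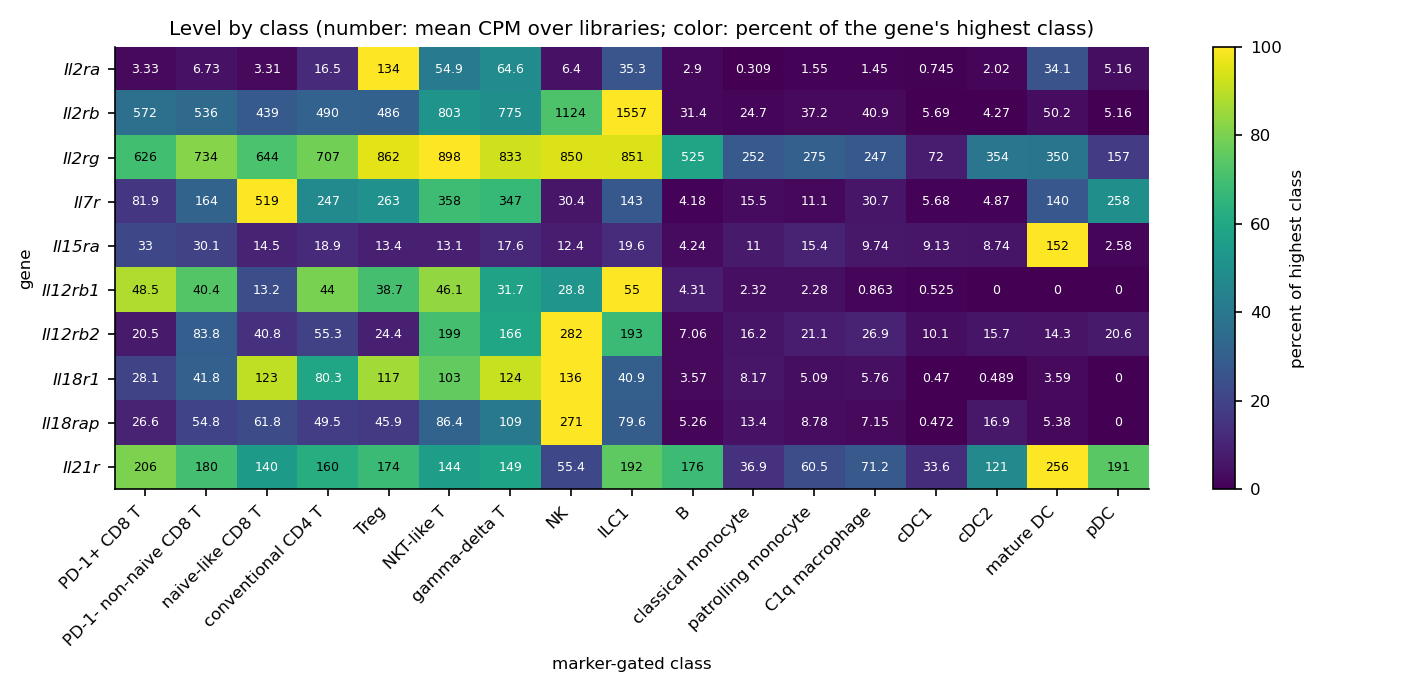
Mean CPM over libraries of each of the 10 genes in the 17 classes with a value, printed in each cell, with color giving the percent of the gene's highest class. Il2ra peaks in Treg (134 CPM), Il7r in naive-like CD8 T cells (519 CPM), and Il12rb2 and Il18rap in NK cells (282 and 271 CPM).

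Whether both chains of a receptor were found in the same cell was counted after thinning. Il18r1 and Il18rap UMIs were both present in 16.4, 11.3, 7.87 and 11.5% of NK cells, where the product of the single shares gives 14.2, 9.18, 6.28 and 8.67%. In ILC1 the pair was found in 2.14, 4.44, 1.99 and 1.17% of cells against a product of 0.870, 1.84, 0.542 and 0.455%. The 95% interval of the pair's share lay above the product in each library in ILC1, but in NK cells in DEN-CDHFD DKO alone (9.06 to 14.3%). Both classes held the pair more often than the product in each of the 4 libraries. This was not particular to them: PD-1- non-naive CD8 T cells held it in 3.26, 1.64, 0.680 and 1.03% of cells against 0.865, 0.421, 0.450 and 0.421%, and B cells in at most 0.294% of cells, from 2 cells or fewer, which was also above the product in 3 of 4 libraries. Il2rb and Il2rg were both present in 66.8, 67.3, 71.5 and 68.8% of NK cells against a product of 66.9, 66.8, 71.1 and 68.8%. The pair Il12rb1 and Il12rb2 was seen in 1.86, 3.42, 1.39 and 2.50% of NK cells against a product of 2.07, 2.52, 1.85 and 1.87%. It was thus below the product in young WT and miR-146a-/-. A cell without a UMI of a chain may still hold its RNA at this depth.

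Likeness across classes was measured as Pearson's r of log2(CPM + 1), with CPM averaged over libraries, over the 12 classes with values in all 4 libraries, among 5427 other genes with 50 CPM or more in 1 class. The points share libraries and a split between lymphoid and other classes, so r describes the pattern and has no test. Il2ra was most like Ttn (r = 0.931), Crem (r = 0.926) and Atp9b (r = 0.925). Il2rb was most like Rab37 (r = 0.984), Sla2 (r = 0.983) and Abhd2 (r = 0.982), and Il2rg most like Rbm28 (r = 0.976), Hsd11b1 (r = 0.975) and Shisa5 (r = 0.973). For Il7r the nearest genes were Camk4 (r = 0.939) and Klk8 (r = 0.936), and for Il15ra Ndufa3 (r = 0.892), Armc7 (r = 0.881) and Nbeal2 (r = 0.877). Il12rb1 was nearest to Prkar1a (r = 0.993), Heca (r = 0.984) and Synj2bp (r = 0.984), and Il12rb2 to Styk1 (r = 0.953), Csf2 (r = 0.950) and Gpc1 (r = 0.948). For Il18r1 they were Snx4 (r = 0.971), Stim1 (r = 0.951) and Prkcq (r = 0.951), for Il18rap Adamts10 (r = 0.980), Gm33104 (r = 0.965) and Mrpl9 (r = 0.963), and for Il21r Lpxn (r = 0.946), Avl9 (r = 0.932) and Prkcz (r = 0.931). Within a single library r was often lower, as for Il2ra with Ttn (0.835 to 0.919 over the 4 libraries) and Crem (0.766 to 0.889), Il15ra with Ndufa3 (0.666 to 0.817) and Il2rb with Abhd2 (0.756 to 0.985). Among the 10 genes themselves, Il2rb and Il18rap had the highest r (0.954), followed by Il18r1 with Il18rap (0.944) and Il2rb with Il12rb1 (0.941). The chains of the interleukin-12 receptor had an r of 0.648, and Il12rb2 with Il21r the lowest (0.141).

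NK cells and ILC1, the innate lymphocytes of the liver, carried most of these receptors at different levels, in 929, 588, 435 and 605 NK cells and 626, 689, 405 and 696 ILC1. NK cells had more of both interleukin-18 receptor chains and of Il12rb2, and ILC1 had more Il2ra, Il7r, Il21r, Il12rb1, Il2rb and Il15ra. Il18rap stood at 349, 238, 245 and 252 CPM in NK cells and 80.6, 102, 64.2 and 71.5 CPM in ILC1 (log2 fold change 1.83, adjusted p = 1e-06, edgeR, log2 ratios 1.77 ± 0.39 (SD, n = 4)). Each NK value was above each ILC1 value. Il18r1 stood at 182, 151, 98.6 and 111 CPM against 42.9, 69.1, 25.3 and 26.5 CPM (log2 fold change 1.83, adjusted p = 3.83e-06, edgeR, log2 ratios 1.81 ± 0.46 (SD, n = 4)), again with no overlap. Il12rb2, at 232, 199, 172 and 167 CPM in ILC1, was higher in NK cells of each library, but its NK range overlapped the ILC1 range (log2 fold change 0.60, adjusted p = 0.000234, edgeR, log2 ratios 0.51 ± 0.23 (SD, n = 4)).

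In the other direction, Il2ra was at 23.1, 60.7, 25.3 and 32.1 CPM in ILC1 and 4.51, 8.99, 5.84 and 6.25 CPM in NK cells (log2 fold change -2.37, adjusted p = 2.55e-07, edgeR, log2 ratios -2.38 ± 0.27 (SD, n = 4)). Il7r was at 172, 144, 122 and 132 CPM in ILC1 and 18.9, 34.1, 33.2 and 35.4 CPM in NK cells (log2 fold change -2.17, adjusted p = 2.14e-06, edgeR, log2 ratios -2.26 ± 0.62 (SD, n = 4)). Il21r was at 213, 174, 185 and 198 CPM in ILC1, and NK cells had 50.2, 48.6, 60.6 and 62.0 CPM (log2 fold change -1.73, adjusted p = 3.47e-08, edgeR, log2 ratios -1.80 ± 0.21 (SD, n = 4)). For these 3 genes the lowest ILC1 library was above the highest NK library. Il12rb1 (log2 fold change -0.87, adjusted p = 4.45e-05), Il2rb (log2 fold change -0.39, adjusted p = 6.73e-05) and Il15ra (log2 fold change -0.62, adjusted p = 0.00617) were also lower in NK cells by edgeR, each in 4 of 4 libraries, and Il2rg did not pass (log2 fold change 0.07, adjusted p = 0.3, edgeR).

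In all, 9 of the 10 genes passed the test, 3 higher and 6 lower in NK cells, against 4652 of 10837 genes (42.9%), with a median log2 fold change of -0.50 over the 10 genes and -0.00 over all genes. Leaving out any 1 library kept these 9 calls, and DESeq2 called 8 of them, without Il15ra, whose fold was similar (log2 fold change -0.59). Eomes, Itga2, S1pr5 and Klra8 defined the NK gate and Itga1, Cxcr6 and Cd200r1 the ILC1 gate. ILC1 also held more UMIs of the T-cell list Cd3d, Cd3e, Cd3g, Trac and Trbc2, at 564, 362, 364 and 453 CPM summed against 104, 133, 133 and 107 CPM in NK cells, mostly of Cd3g or Trbc2. The part of these UMIs in the differences was not tested. Of the fixed lists, 1 ligand gene was higher and 2 lower of 4 tested, 2 partner chains were higher and 2 lower of 8, 4 signalling genes were higher and 2 lower of 14, and 4 target genes were higher and 4 lower of 8. Eomes is among the higher target genes, and the NK gate fixed its call. The largest differences were in Eomes, a gate marker (log2 fold change 5.34, adjusted p = 8.64e-10, higher in 4 of 4 libraries), Il2, the interleukin-2 gene (log2 fold change -3.41, adjusted p = 2.7e-06, lower in 4 of 4 libraries), and Socs2, a feedback inhibitor (log2 fold change -3.15, adjusted p = 7.52e-07, lower in 4 of 4 libraries), all by edgeR.

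**Figure D2:**
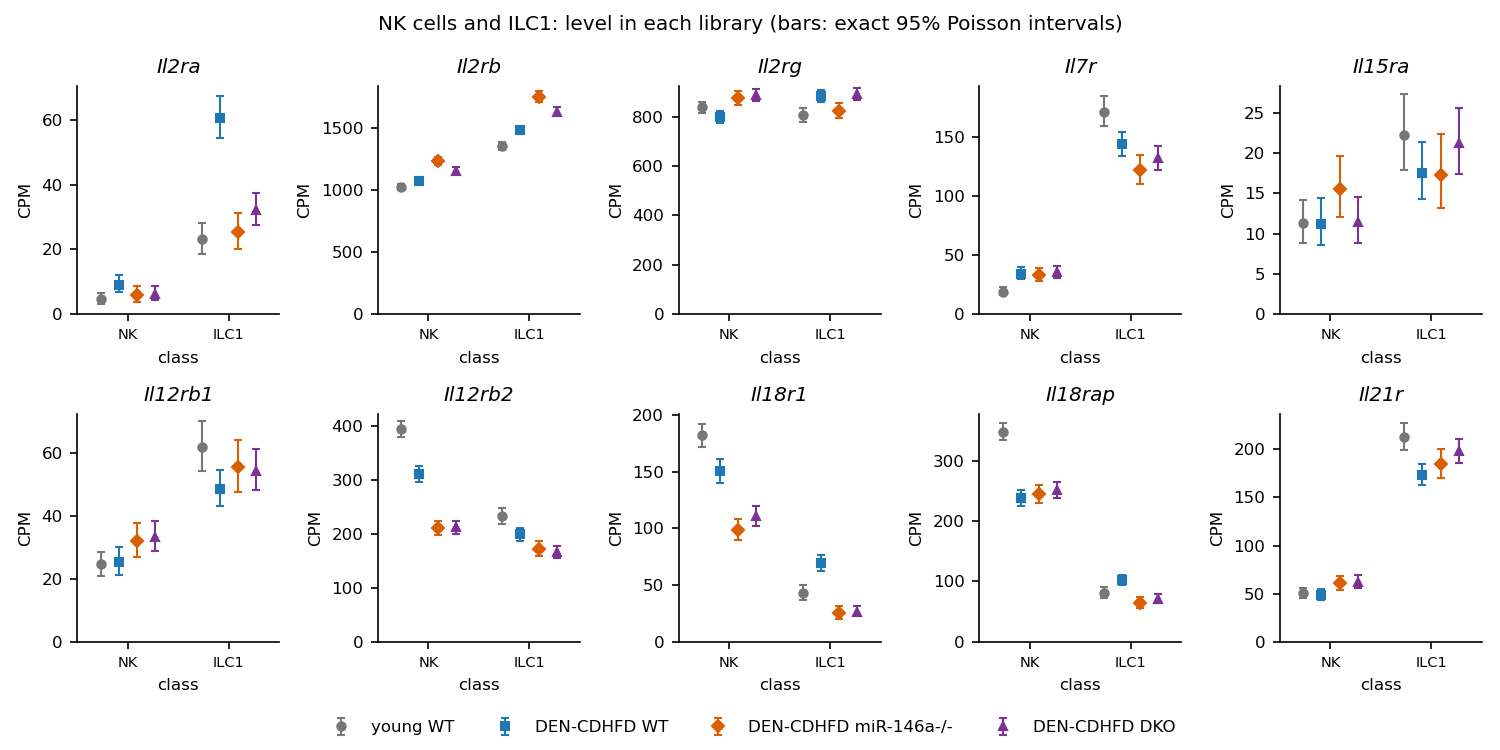
CPM of the 10 genes in NK cells and ILC1 of each library, 1 panel per gene, with exact 95% Poisson intervals as bars. Il18r1 and Il18rap are higher in NK cells and Il2ra, Il7r and Il21r higher in ILC1 in all 4 libraries, and Il2ra in ILC1 of DEN-CDHFD WT stands at 60.7 CPM above the others.

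Between conditions, a difference is called past the fold when the ratio of CPM is at least 1.5 either way, among genes with 20 UMIs over the pair and 20 CPM in 1 library. In ILC1, Il2ra went from 23.1 CPM (18.6 to 28.3) in young WT to 60.7 CPM (54.4 to 67.4) in DEN-CDHFD WT, and stood at 25.3 CPM (20.1 to 31.3) in DEN-CDHFD miR-146a-/- and 32.1 CPM (27.4 to 37.4) in DEN-CDHFD DKO. It was 2.62-fold higher (interval 2.08 to 3.34) in DEN-CDHFD WT than in young WT and 2.39 times lower (ratio 0.418, interval 0.324 to 0.530) in DEN-CDHFD miR-146a-/- than in DEN-CDHFD WT. Il18r1 had the same shape in ILC1: it was 1.61-fold higher (interval 1.34 to 1.94) and then 2.72 times lower (ratio 0.367, interval 0.285 to 0.464). The DEN-CDHFD WT library was thus the high one for both genes. Il18rap was 1.59 times lower (ratio 0.629, interval 0.534 to 0.737) in DEN-CDHFD miR-146a-/- ILC1 than in DEN-CDHFD WT, a difference under the fold after thinning (log2 ratio -0.38). In all 2 of 10 measurable genes were past the fold for DEN-CDHFD WT over young WT in ILC1, both higher (7.25% of all genes were past it), 3 of 9, all lower, for DEN-CDHFD miR-146a-/- over DEN-CDHFD WT (5.06%), and 0 of 10 for DKO over miR-146a-/- (1.54%).

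NK cells showed 2 such differences. Il7r was 1.80-fold higher (interval 1.43 to 2.28) in DEN-CDHFD WT than in young WT, at 18.9, 34.1, 33.2 and 35.4 CPM, but not with gates on thinned cells (log2 ratio 0.16). Il18r1 was 1.53 times lower (ratio 0.655, interval 0.581 to 0.736) in DEN-CDHFD miR-146a-/- than in DEN-CDHFD WT, and under the fold with a limit of 4000 features (log2 ratio -0.47), strict gates (-0.57) and the mean over cells (-0.49). These were 1 of 8 genes for DEN-CDHFD WT over young WT (5.38% of all genes), 1 of 8 for miR-146a-/- over WT (6.02%) and 0 of 8 for DKO over miR-146a-/- (1.26%). Il12rb2 stood at 395, 310.5, 211 and 212 CPM, with each step under the fold in the main run, and the 2 libraries without miR-146a were the low ones. For miR-146a-/- over WT it was past the fold after thinning (log2 ratio -0.68), with TMM factors (-0.59) and with gates on thinned cells (-0.61). Il18rap was past it, lower, for DEN-CDHFD WT over young WT after thinning (log2 ratio -0.61), and Il7r, higher, for DKO over miR-146a-/- with gates on thinned cells (0.60). Among the listed genes, Ifng, the interferon-gamma gene, went from 337 to 158 CPM in NK cells and from 199.9 to 77.6 CPM in ILC1 between DEN-CDHFD WT and DEN-CDHFD miR-146a-/-. Socs3, a feedback inhibitor of STAT3 signalling, went from 109.9 to 32.1 CPM and from 50.8 to 9.43 CPM over the same step, and Jak3, the kinase bound to the common gamma chain, from 70.1 to 113 CPM in NK cells. For DEN-CDHFD WT over young WT, Socs3 went from 64.7 to 109.9 CPM in NK cells, and in ILC1 Socs2 went from 77.7 to 37.6 CPM, Il2 from 38.2 to 20.2 CPM and Socs3 from 30.3 to 50.8 CPM. In ILC1 of DEN-CDHFD miR-146a-/- and DKO, Il2 stood at 33.5 and 27.8 CPM.

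PD-1+ CD8 T cells, the cells with a UMI of the checkpoint receptor gene Pdcd1, carried less Il12rb2, Il18rap, Il7r and Il18r1 than PD-1- non-naive CD8 T cells. Cells per library were 304, 1382, 1520 and 1310 PD-1+ and 410, 380, 450 and 496 PD-1-, at medians of 6789.5, 7127, 6781.5 and 5942 and 5986.5, 6376.5, 6407 and 5756 UMIs. Il12rb2 stood at 46.3, 18.6, 5.35 and 11.9 CPM in PD-1+ and 103, 91.9, 55.5 and 84.5 CPM in PD-1- cells (log2 fold change -2.35, adjusted p = 0.00149, edgeR, log2 ratios -2.41 ± 0.95 (SD, n = 4)), and the ranges did not overlap. Il18rap stood at 42.7, 16.3, 23.5 and 23.9 CPM against 61.5, 53.4, 59.5 and 44.9 CPM (log2 fold change -1.12, adjusted p = 0.00371, edgeR, log2 ratios -1.12 ± 0.51 (SD, n = 4)), also without overlap. Both were lower in PD-1+ cells in 4 of 4 libraries.

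Il7r stood at 156, 44.8, 53.4 and 73.5 CPM in PD-1+ cells, with a UMI in 18.6, 4.97, 6.47 and 6.96% of thinned cells, and at 158, 154, 222 and 123 CPM in PD-1- cells (log2 fold change -1.16, adjusted p = 0.0308, edgeR, log2 ratios -1.15 ± 0.94 (SD, n = 4)). The young WT library showed almost no difference between the classes (log2 ratio -0.02), and the treated libraries carried it. Il18r1 stood at 47.1, 19.2, 21.7 and 24.2 CPM against 40.1, 35.4, 43.9 and 47.8 CPM (log2 fold change -0.68, adjusted p = 0.0469, edgeR, log2 ratios -0.67 ± 0.60 (SD, n = 4)), higher in PD-1+ cells of young WT (log2 ratio 0.23) and lower in the other 3. The 6 other genes did not pass by edgeR: Il2ra (log2 fold change -0.99, adjusted p = 0.186), Il2rg (log2 fold change -0.22, adjusted p = 0.0657), Il12rb1 (log2 fold change 0.28, adjusted p = 0.0795), Il2rb (log2 fold change 0.09, adjusted p = 0.694), Il15ra (log2 fold change 0.15, adjusted p = 0.306) and Il21r (log2 fold change 0.19, adjusted p = 0.316). So 4 of 10 genes passed, all lower in PD-1+ cells, against 1333 of 10100 genes (13.2%), 705 higher and 628 lower, with a median log2 fold change of -0.45 over the 10 genes and -0.00 over all.

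Which of these calls held depended on the libraries, depth and filter. Without the DEN-CDHFD WT, the DEN-CDHFD miR-146a-/- or the DEN-CDHFD DKO library, 2 genes were called, Il12rb2 and Il18rap, with 489, 571 and 492 genes called in all. Il7r then had log2 fold changes of -0.95, -0.82 and -1.30 and Il18r1 of -0.63, -0.56 and -0.57. Without the young WT library 6 genes were called, Il12rb1 (log2 fold change 0.34) and Il2rg (-0.26) besides the 4, with 1677 genes in all. DESeq2 called 2 of the 10, without Il7r (-1.13) and Il18r1 (-0.65), whose log2 fold changes were close to those of edgeR. Il18r1 also lost its call after thinning (log2 fold change -0.78). Calls beyond the 4 were made for Il12rb1, higher, after thinning (0.51), with gates on thinned cells (0.51) and with no filter (0.31), for Il21r, higher, with gates on thinned cells (0.33), and for Il2ra, lower, with no filter (-0.96). That all calls are lower thus holds for the main run. Of the fixed lists, 0 ligand genes were higher and 1 lower of 3 tested, 2 partner chains were higher and 3 lower of 9, 1 signalling gene was higher and 0 lower of 14, and 1 target gene was higher and 2 lower of 8. The largest differences by edgeR were in Il2 (log2 fold change -2.06, adjusted p = 0.00996, lower in 4 of 4 libraries), Socs2 (log2 fold change -1.19, adjusted p = 0.0138, lower in 4 of 4 libraries) and Il4ra, the interleukin-4 receptor chain (log2 fold change -0.94, adjusted p = 0.000811, lower in 4 of 4 libraries).

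Naive-like CD8 T cells, with UMIs of naive-cell markers, Lef1 and Ccr7 among them, and none of Pdcd1, were set against the same PD-1- cells, at medians of 10008.5, 10638, 10568 and 10573 UMIs. They carried more Il7r, at 557, 451, 523 and 543 CPM (log2 fold change 1.86, adjusted p = 1.48e-07, edgeR, log2 ratios 1.69 ± 0.39 (SD, n = 4)), and more Il18r1, at 115, 112, 145 and 119 CPM (log2 fold change 1.73, adjusted p = 8.42e-09, edgeR, log2 ratios 1.55 ± 0.18 (SD, n = 4)). Both were above the PD-1- values in each library with no overlap. They carried less Il12rb1, at 12.5, 13.7, 15.3 and 11.4 CPM against 34.0, 40.1, 42.6 and 44.9 CPM (log2 fold change -1.41, adjusted p = 1.69e-06, edgeR, log2 ratios -1.61 ± 0.24 (SD, n = 4)). Il15ra (log2 fold change -0.86, adjusted p = 0.000828) and Il12rb2 (log2 fold change -0.85, adjusted p = 0.00228) were lower by edgeR in 4 of 4 libraries. The log2 ratios of Il12rb2 ran from -1.99 to -0.20, and DESeq2 did not call it (log2 fold change -0.89).

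Of the 3 remaining calls, Il18rap was higher in naive-like cells by edgeR (log2 fold change 0.35, adjusted p = 0.00709), in 3 of 4 libraries, with log2 ratios of 0.03, -0.07, 0.28 and 0.44. That call held without any 1 library, but not with DESeq2 (log2 fold change 0.36), after thinning (0.41) or with gates on thinned cells (0.25), so the fold was as large in the first 2 of these. The last 2 calls stood near the threshold. Il21r (log2 fold change -0.18, adjusted p = 0.0378, edgeR) was lower in 4 of 4 libraries, and lost its call without the young WT (log2 fold change -0.19), DEN-CDHFD miR-146a-/- (-0.14) or DEN-CDHFD DKO library (-0.16). Il2ra (log2 fold change -0.82, adjusted p = 0.0438, edgeR) lost its call without any 1 library, at -0.92, -0.82, -0.92 and -0.64 without young WT, DEN-CDHFD WT, miR-146a-/- and DKO. Its levels were low, at 3.17, 6.76, 2.71 and 0.614 CPM in naive-like and 5.35, 13.6, 3.99 and 3.96 CPM in PD-1- cells, against 2.59, 1.86, 5.31 and 1.85 CPM in the B-cell reference. Il2rb (log2 fold change -0.10) and Il2rg (-0.00) did not pass by edgeR. The fitted values lie above the plain CPM ratios here, since TMM rescales the sums: the mean log2 ratio of Il2rg was -0.19. In all 8 of 10 genes passed, 3 higher and 5 lower, against 3914 of 10119 genes (38.7%), with a median of -0.14 over the 10 genes and -0.00 over all. DESeq2 called 4 of the 10, and 5 were called after thinning or with gates on thinned cells. Of the lists, 0 ligand genes were higher and 1 lower of 2 tested, 4 partner chains were higher and 2 lower of 9, 3 signalling genes were higher and 5 lower of 14, and 2 target genes were higher and 4 lower of 8. The largest differences by edgeR were in Il6ra, the interleukin-6 receptor gene (log2 fold change 4.03, adjusted p = 1.98e-09, higher in 4 of 4 libraries), Il2 (log2 fold change -2.53, adjusted p = 5.83e-07, lower in 4 of 4 libraries) and Cish, a feedback gene of STAT5 (log2 fold change -1.99, adjusted p = 6.22e-08, lower in 4 of 4 libraries).

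Across conditions, PD-1+ CD8 T cells differed most between young WT and DEN-CDHFD WT. In DEN-CDHFD WT, Il7r was 3.47 times lower (ratio 0.288, interval 0.252 to 0.329), Il12rb2 2.49 times lower (ratio 0.402, interval 0.320 to 0.509), Il18r1 2.45 times lower (ratio 0.408, interval 0.325 to 0.515) and Il18rap 2.62 times lower (ratio 0.382, interval 0.301 to 0.490) than in young WT. For these 4 genes the young WT library was above each of the 3 treated libraries, and the fold was passed under each alternative run. Il2rb was 1.51-fold higher (interval 1.42 to 1.61) and Il21r 1.56-fold higher (interval 1.42 to 1.73), both under the fold after thinning (log2 ratios 0.57 and 0.55). Il12rb1 was under the fold in the main run but past it, higher, under 5 alternatives, at log2 ratios from 0.60 to 0.64. So 6 of 9 measurable genes were past the fold, 2 higher and 4 lower, against 12.4% of all genes. For miR-146a-/- over WT it was 1 of 8 (6.74% of all genes): Il15ra, 1.54-fold higher (interval 1.33 to 1.79), and under the fold after thinning (log2 ratio 0.30). Over the same step Il18rap was past the fold, higher, with a limit of 4000 features, after thinning and as the mean over cells (log2 ratios 0.92, 0.76 and 0.60), and Il21r, lower, with the limit of 4000 features and the mean over cells (-0.63 and -0.62). For DKO over miR-146a-/- it was 1 of 8 (3.43%): Il2rb, 1.56 times lower (ratio 0.640, interval 0.617 to 0.663), at 433, 654, 733 and 469 CPM over the 4 libraries. Il12rb2 was under 20 CPM in both DEN-CDHFD WT and miR-146a-/- and so outside these counts, with a ratio 0.289 (0.213 to 0.382) between them, and a ratio 2.22 (1.62 to 3.08) for DKO over miR-146a-/-. The miR-146a-/- value of 5.35 CPM is near the 3.98 CPM of the B-cell reference.

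Marker lists also differed inside the PD-1+ CD8 T class. The 3 PD-1+ markers Pdcd1, Tox and Lag3 summed to 862, 2002, 1999 and 1502 CPM, with Tox the most abundant. The 3 Treg markers summed to 219, 777, 252 and 348 CPM, mostly Ctla4, with Foxp3 at 0 by the gate. The part of a changed mix of PD-1+ cells in the receptor differences was not tested. Among the listed genes, DEN-CDHFD WT over young WT had Il2 from 23.7 to 3.32 CPM, Stat3 from 175 to 332 CPM and Stat5a from 33.4 to 18.4 CPM. Over miR-146a-/- against WT, Il4ra went from 23.1 to 13.5 CPM, Socs3 from 66.2 to 39.3 CPM and Bcl2, a survival gene, from 298 to 465 CPM. DKO over miR-146a-/- had Ifng from 185 to 121 CPM.

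PD-1- non-naive CD8 T cells had no gene past the fold of 9 measurable between young WT and DEN-CDHFD WT in the main run (4.56% of all genes). This depended on the gates. With gates on thinned cells Il7r (log2 ratio -0.86), Il12rb2 (-0.90), Il18r1 (-0.67) and Il18rap (-0.99) were lower past the fold, the same 4 genes as in PD-1+ cells. Thinning with the main gates put Il18rap past it, lower (-0.70), and Il12rb1, higher (0.70). With a minimum of 10 CPM, Il2ra, at 5.35, 13.6, 3.99 and 3.96 CPM, was past the fold as well, higher for this contrast (1.32) and lower for miR-146a-/- over WT (-1.73). Whether the PD-1- cells differ from PD-1+ cells in this contrast is therefore uncertain. For miR-146a-/- over WT, 2 of 9 were past it (6.28%): Il12rb2 was 1.65 times lower (ratio 0.605, interval 0.493 to 0.740) and Il15ra 1.66-fold higher (interval 1.20 to 2.33), the second under the fold after thinning (log2 ratio 0.48) and with gates on thinned cells (0.46). For DKO over miR-146a-/-, 2 of 9 were past it (2.83%): Il7r was 1.81 times lower (ratio 0.552, interval 0.485 to 0.627), but not with gates on thinned cells (log2 ratio -0.27), and Il12rb2 was 1.52-fold higher (interval 1.25 to 1.86). The latter was under the fold with loose gates (log2 ratio 0.57), the mean over cells (0.53), TMM factors (0.57) and gates on thinned cells (0.38). Il12rb2 in these cells stood at 103, 91.9, 55.5 and 84.5 CPM, with the miR-146a-/- library the low one. In naive-like CD8 T cells, 0 of 7 genes were past the fold for WT over young WT (2.94%), 0 of 7 for miR-146a-/- over WT (4.61%) and 1 of 7 for DKO over miR-146a-/- (2.37%). That gene was Il12rb2, at 43.9, 49.5, 48.5 and 21.2 CPM and 2.28 times lower (ratio 0.439, interval 0.327 to 0.577) in DKO. After thinning, Il2rb (log2 ratio 0.59) and Il12rb1 (0.74) were higher past the fold for WT over young WT, and with gates on thinned cells Il18rap was for miR-146a-/- over WT (0.61).

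Among the listed genes in PD-1- cells, Socs3 went from 21.4 to 39.0 CPM and Socs2 from 23.7 to 13.6 CPM between young WT and DEN-CDHFD WT. From WT to miR-146a-/-, Il4ra went from 47.1 to 28.6 CPM, Jak3 from 82.2 to 135 CPM and Ifng from 246 to 153 CPM. From miR-146a-/- to DKO, Il2 went from 22.9 to 14.2 CPM and Jak3 from 135 to 89.4 CPM. In naive-like cells Il6st, the shared chain of the interleukin-6 family, went from 53.4 to 34.2 CPM between young WT and DEN-CDHFD WT, then from 34.2 to 19.7 CPM and from 19.7 to 41.2 CPM over the next steps. Il4ra went from 96.8 to 53.0 CPM and Socs3 from 131 to 81.3 CPM from WT to miR-146a-/-. Il4ra was thus lower in DEN-CDHFD miR-146a-/- than in DEN-CDHFD WT in each of the 3 CD8 T-cell classes.

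**Figure D3:**
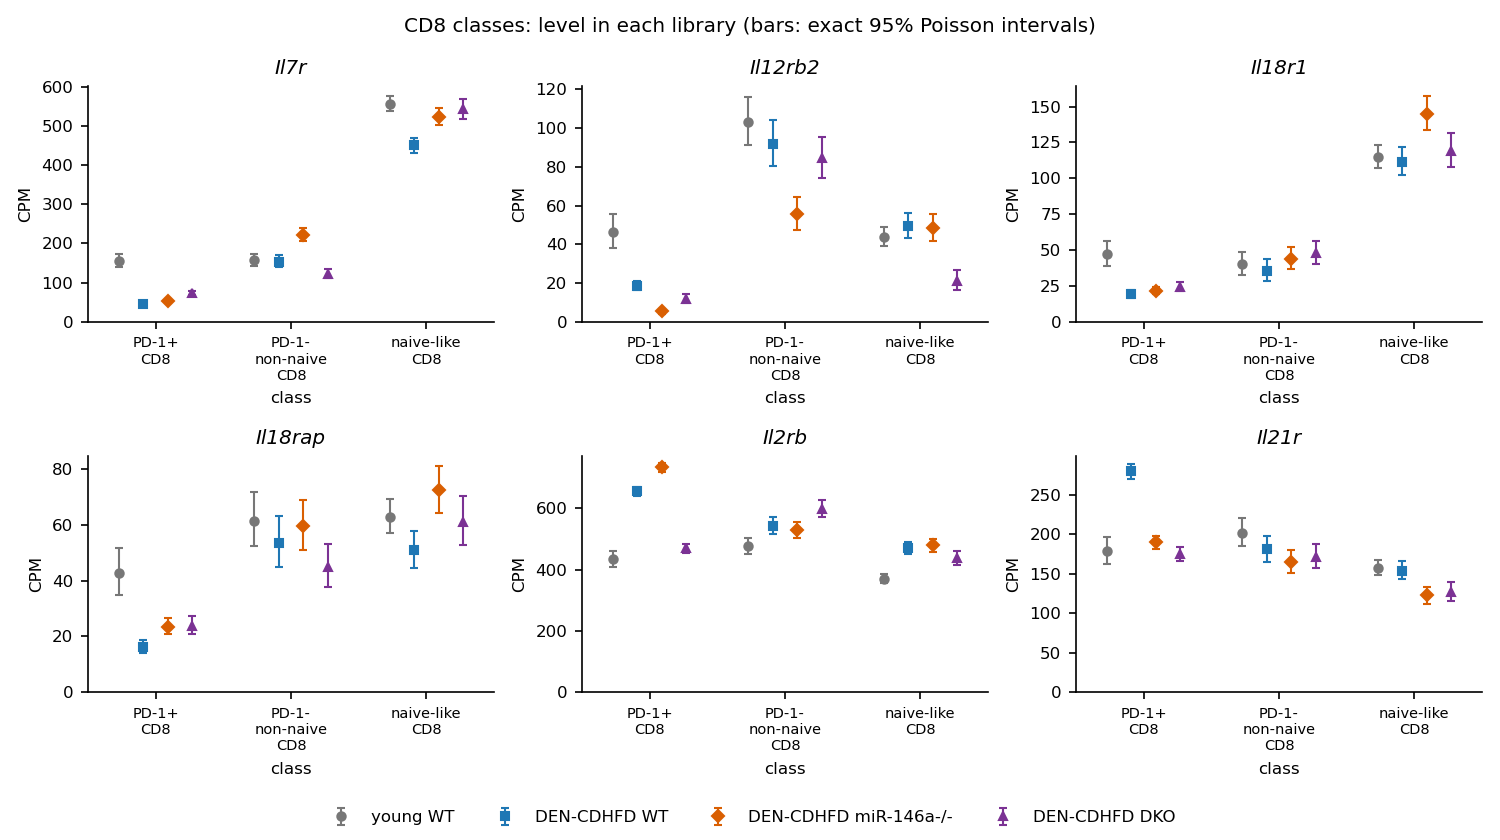
CPM of 6 receptor genes in the 3 CD8 T-cell classes of each library, 1 panel per gene, with exact 95% Poisson intervals as bars. Il7r, Il12rb2, Il18r1 and Il18rap in PD-1+ cells are highest in young WT, and Il7r and Il18r1 are highest in naive-like cells.

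Treg, defined by Foxp3, were set against conventional CD4 T cells. Il2ra, whose protein CD25 is a known Treg marker, stood at 132, 122, 162 and 119.5 CPM in Treg and 26.3, 10.5, 12.9 and 16.2 CPM in conventional CD4 T cells (log2 fold change 2.95, adjusted p = 2.99e-06, edgeR, log2 ratios 3.08 ± 0.60 (SD, n = 4)). It was higher in Treg in 4 of 4 libraries with no overlap. Il18r1 stood at 101, 128, 133 and 105 CPM against 77.2, 116, 64.1 and 63.8 CPM (log2 fold change 0.59, adjusted p = 0.00959, edgeR, log2 ratios 0.58 ± 0.39 (SD, n = 4)), higher in 4 of 4 libraries, with ranges that overlapped. Il12rb2 stood at 67.2, 15.2, 8.98 and 6.26 CPM against 94.8, 74.4, 16.3 and 35.7 CPM (log2 fold change -1.20, adjusted p = 0.0125, edgeR, log2 ratios -1.48 ± 0.97 (SD, n = 4)), lower in 4 of 4 libraries. These were 3 of 10 genes, 2 higher and 1 lower, against 1226 of 9593 genes (12.8%), with a median log2 fold change of 0.06 over the 10 genes and -0.02 over all. Il2rg did not pass (log2 fold change 0.26, adjusted p = 0.07, edgeR).

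The Il2ra call held without any 1 library. Without DEN-CDHFD WT, Il12rb2 lost its call (log2 fold change -1.05), without miR-146a-/- Il18r1 did (0.44), and without DKO both did (-0.91 and 0.55), while Il2rg was called without young WT (0.34). Il2rg was also called after thinning (0.35), with gates on thinned cells (0.31) and with no filter (0.22), each time higher in Treg. All genes called numbered 1222, 955, 782 and 738 without young WT, DEN-CDHFD WT, miR-146a-/- and DKO. Treg numbered 97, 40, 221 and 216 cells. Of the lists, 1 ligand gene was higher and 2 lower of 3 tested, 4 partner chains were higher and 0 lower of 12, 3 signalling genes were higher and 1 lower of 14, and 0 target genes were higher and 5 lower of 8. The largest differences by edgeR were in Il21, the interleukin-21 gene (log2 fold change -6.23, adjusted p = 4.61e-05, lower in 4 of 4 libraries), Il1rl1, the interleukin-33 receptor gene (log2 fold change 4.10, adjusted p = 1.36e-06, higher in 4 of 4 libraries), and Eomes (log2 fold change -3.32, adjusted p = 0.00131, lower in 4 of 4 libraries). Treg of 3 libraries had 0 UMIs of Il21, so its fitted value depends on the prior count.

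In conventional CD4 T cells, Il12rb2 stood at 94.8 CPM (86.1 to 104), 74.4 CPM (62.3 to 88.1), 16.3 CPM (12.2 to 21.4) and 35.7 CPM (28.5 to 44.2). It was 4.52 times lower (ratio 0.221, interval 0.157 to 0.304) in miR-146a-/- than in WT of the treated libraries and 2.18-fold higher (interval 1.53 to 3.14) in DKO than in miR-146a-/-. Both differences were past the fold under each alternative run. Il12rb1, the other chain, stood at 28.9, 29.96, 57.3 and 59.9 CPM and was 1.90-fold higher (interval 1.41 to 2.64) in miR-146a-/- than in WT, but not with gates on thinned cells (log2 ratio 0.56). The interleukin-12 receptor chains thus differed in opposite directions over this step.

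The interleukin-18 receptor chains were lower in the same cells without miR-146a: Il18r1, at 77.2, 116, 64.1 and 63.8 CPM, was 1.81 times lower (ratio 0.553, interval 0.454 to 0.673) and Il18rap, at 52.0, 67.1, 40.1 and 38.7 CPM, was 1.68 times lower (ratio 0.597, interval 0.462 to 0.771). Both were past the fold under each alternative run. From young WT to DEN-CDHFD WT, Il18r1 was 1.503-fold higher (interval 1.26 to 1.79), under the fold under 5 alternatives (log2 ratio 0.30 after thinning), and Il2ra was 2.44 times lower (ratio 0.410, interval 0.233 to 0.653), at 26.3, 10.5, 12.9 and 16.2 CPM. Il15ra was 1.53-fold higher (interval 0.993 to 2.48) in miR-146a-/-, with an interval that reaches below 1, and under the fold with strict gates (log2 ratio 0.50), loose gates (0.49) and a prior of 5 counts (0.48). So 2 of 9 genes were past the fold for WT over young WT, 1 higher and 1 lower (6.53% of all genes), 5 of 9 for miR-146a-/- over WT, 2 higher and 3 lower (10.5%), and 1 of 9 for DKO over miR-146a-/- (4.87%). With gates on thinned cells Il21r for WT over young WT (log2 ratio 0.66), Il2ra for miR-146a-/- over WT (0.89) and Il15ra for DKO over miR-146a-/- (-0.91) were also past it, and Il21r for the last contrast after thinning (-0.75).

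Other markers also differed inside the conventional CD4 T class. The 3 PD-1+ markers summed to 414, 689, 1222 and 991 CPM, most of it Tox. The 3 NKT-like markers summed to 314, 249, 184 and 268 CPM, with Zbtb16 at 0 by the gate. The 2 erythroid genes Hbb-bs and Hba-a1 summed to 516, 0.555, 1423 and 6.80 CPM. The part of these in the receptor differences was not tested. Among the listed genes, Eomes, a T-box factor of cytotoxic cells, went from 33.8 to 83.8 CPM between young WT and DEN-CDHFD WT and then from 83.8 to 191 CPM in miR-146a-/-. Il2 went from 33.2 to 14.4 CPM and Socs2 from 56.7 to 31.1 CPM over the first step. Ifng went from 329 to 182 CPM and Il4ra from 41.1 to 22.8 CPM over the second, and Il21 from 31.1 to 49.3 CPM from miR-146a-/- to DKO.

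In Treg, Il12rb2 was 4.04 times lower (ratio 0.247, interval 0.0711 to 0.557) in DEN-CDHFD WT than in young WT, with 5 UMIs in the DEN-CDHFD WT library, and had a smaller difference, not called, after thinning (log2 ratio -0.95). It stood at 67.2, 15.2, 8.98 and 6.26 CPM. This was 1 of 9 genes (24.3% of all genes). For miR-146a-/- over WT it was 1 of 8 (21.6%), Il18rap, 1.58-fold higher (interval 0.859 to 3.55), an interval that includes 1, and under the fold after thinning (log2 ratio 0.33) and in 5 other alternatives, and for DKO over miR-146a-/- 0 of 8 (5.87%). Other genes were past the fold only in an alternative. For miR-146a-/- over WT, Il2rb was higher past it after thinning (log2 ratio 1.32) and as the mean over cells (0.69), Il21r was lower after thinning (-0.59), Il15ra higher with a limit of 4000 features (0.59), and Il12rb2 lower with a minimum of 10 CPM (-0.86). For WT over young WT, thinning put Il2rb (-0.62) and Il18r1 (0.91) past it, and the mean over cells Il7r (0.61). For DKO over miR-146a-/-, Il15ra was lower with a limit of 4000 features (-1.67) and a minimum of 10 CPM (-1.47), Il18r1 after thinning (-0.70) and Il2ra with strict gates (-0.65). In the main run no share was above that of all genes. The 7 NK markers summed to 339, 100.4, 84.0 and 104 CPM and the 6 ILC1 markers to 472, 192, 295 and 295 CPM in Treg, highest in young WT like Il12rb2, and their part was not tested. Ifng went from 74.6 to 9.13 CPM, Tbx21 from 78.9 to 30.4 CPM and Il9r from 23.5 to 9.13 CPM over the same step. From WT to miR-146a-/-, Il6ra went from 66.9 to 35.4 CPM, Il1rl1 from 82.2 to 43.3 CPM and Socs2 from 24.3 to 43.8 CPM.

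NKT-like T cells numbered 1501, 152, 116 and 146. Il2ra there stood at 80.0, 35.0, 41.3 and 63.2 CPM. It was 2.27 times lower (ratio 0.441, interval 0.321 to 0.583) in DEN-CDHFD WT than in young WT, but not called after thinning (log2 ratio -0.50). In DKO it was 1.52-fold higher (interval 1.04 to 2.28) than in miR-146a-/-, a difference not past the fold with no limit on cells (log2 ratio 0.54), loose gates (0.48), a prior of 5 counts (0.55) or gates on thinned cells (0.44). The counts were 1 of 9 (8.79% of all genes), 0 of 9 (11.8%) and 1 of 9 (11.1%) over the 3 steps. No other gene was past the fold in the main run, with Il2rb at 802, 796, 858 and 757 CPM and Il12rb2 at 222, 223, 193 and 159 CPM. Under alternatives, Il12rb2 was lower past the fold for miR-146a-/- over WT with gates on thinned cells (log2 ratio -0.87) and for DKO over miR-146a-/- after thinning (-0.64). Il12rb1 was lower for miR-146a-/- over WT with strict gates (-0.61) and after thinning (-0.67), and Il18rap for DKO over miR-146a-/- after thinning (-0.69). Socs2 went from 114 to 72.1 CPM over the first step, and Ifng from 291 to 162 CPM, Stat5a from 19.3 to 31.7 CPM and Traf6 from 33.6 to 21.1 CPM over the second. From miR-146a-/- to DKO, Traf6 went from 21.1 to 41.0 CPM, Bcl2 from 403 to 639.5 CPM and Eomes from 20.2 to 32.0 CPM.

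**Figure D4:**
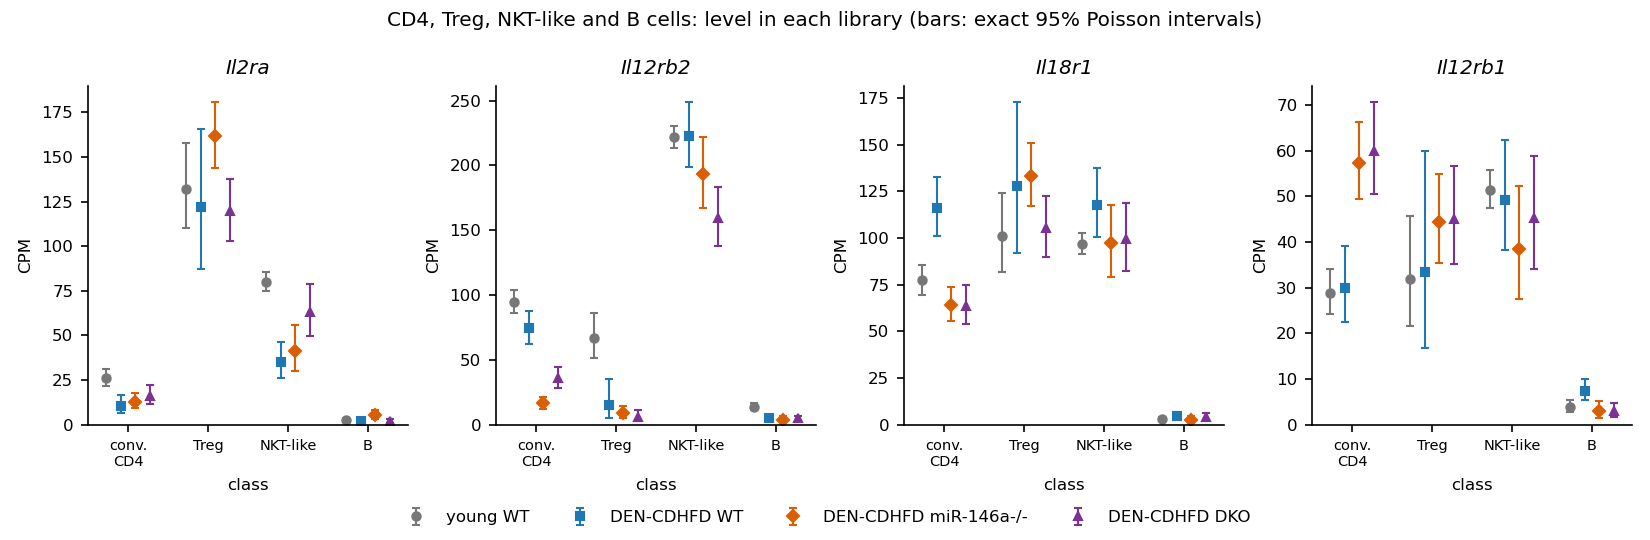
CPM of Il2ra, Il12rb2, Il18r1 and Il12rb1 in conventional CD4 T cells, Treg, NKT-like T cells and B cells of each library, with exact 95% Poisson intervals as bars. Il2ra is highest in Treg in each library, and Il12rb2 in conventional CD4 T cells is lowest, at 16.3 CPM, in DEN-CDHFD miR-146a-/-.

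Summed over the 8 T, NK and ILC1 classes with values in all 4 libraries, 13 of 70 measurable values (18.6%) were past the fold for DEN-CDHFD WT over young WT, 6 higher and 7 lower, against 9.12% of all gene values in the same classes. For miR-146a-/- over WT, 13 of 67 (19.4%) were past it, 5 higher and 8 lower, against 9.23%. For DKO over miR-146a-/-, 6 of 68 (8.82%) were past it, 3 higher and 3 lower, against 4.22%. The 3 genes with a miR-146a seed match had no common direction over the second contrast in these classes in the main run. Il2rb was past the fold in none there, though it was in Treg under the alternatives given above. Il2ra was past it in ILC1 alone in the main run, lower in miR-146a-/-, with other classes past it in an alternative. Il18rap was lower in conventional CD4 T cells and, though not after thinning, in ILC1, and higher in Treg, where the interval includes 1. The step to DKO held the fewest differences, for these genes and for all genes. The first and second contrasts share the DEN-CDHFD WT library, and the second shares the miR-146a-/- library with the DKO contrast. Of ligand genes 3 of 7, 2 of 5 and 2 of 5 values were past the fold over the 3 contrasts. Of partner chains it was 3 higher and 4 lower of 57, then 1 and 10 of 56, then 1 and 0 of 54. Of signalling genes it was 3 higher and 1 lower of 112, then 3 and 2 of 111, then 1 and 1 of 111. Of target genes it was 8 higher and 9 lower of 59, then 4 and 11 of 57, then 2 and 1 of 56.

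**Figure D5:**
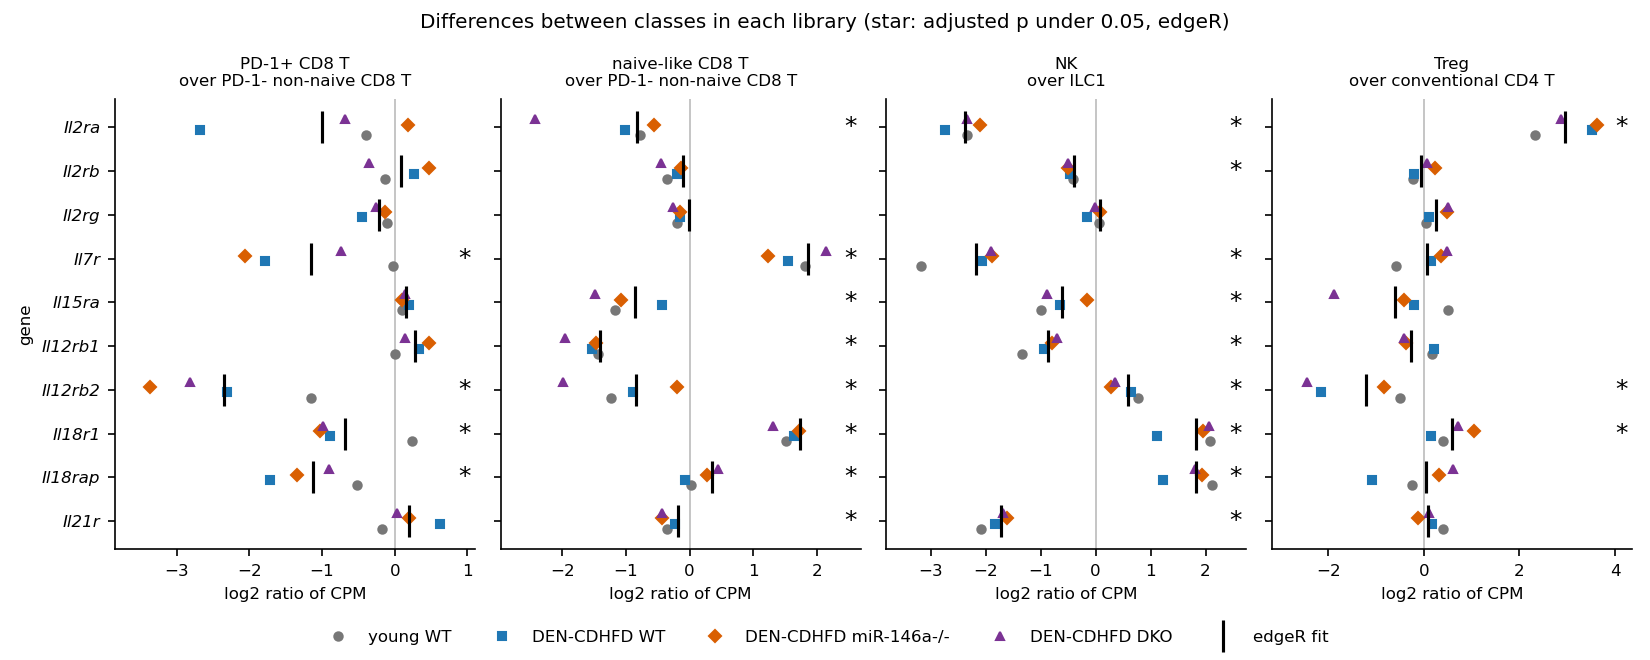
Log2 ratios of CPM between classes for the 10 genes in each library (points) with the fitted log2 fold change of edgeR (black bars) in the 4 comparisons, a star marking an adjusted p under 0.05. NK over ILC1 holds 9 stars, naive-like over PD-1- cells 8, PD-1+ over PD-1- cells 4 and Treg over conventional CD4 T cells 3.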

How the data were processed

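The authors deposited, for each of the 4 libraries, a matrix of UMI counts per gene and cell made with Cell Ranger 7.0.1, per the file headers. The paper's methods name an earlier version. The study's limits were applied, between 600 and 6000 features per cell and a mitochondrial share of no more than 5%, and 38367 barcodes were distinct among 39121, with 745 in 2 or more libraries and 9 in 3 or more. Doublets were handled only by the upper feature limit and by gates that exclude other lineages' markers, and no doublet caller was run. UMIs of a class were summed per library. Classes were compared across the 4 libraries with edgeR 4.0.16 (quasi-likelihood, TMM, filterByExpr, library as a block, R 4.3.3) and adjusted by Benjamini-Hochberg over all genes tested, with DESeq2 1.42.0 as an alternative. For each comparison the edgeR fit, but not DESeq2, was also run on simulated counts. Those counts had a common dispersion and no difference between conditions, unlike the data. Between libraries, ratios of CPM used 0.5 added counts and no test. Other steps used Python 3.11.15, numpy 2.4.6, scipy 1.17.1, pandas 2.3.3 and matplotlib 3.10.9.

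Named genes are the 10 receptors, the 3 genes of 4 fixed lists (11 ligands, 14 partner chains, 14 signalling genes and 8 target genes) with the largest log2 fold change among those past a comparison's rule, the 3 genes most like each receptor (2 for Il7r), and gate markers. Members and lists were chosen with earlier results of these data known. Alternatives changed the cell limits, gate strictness, thinning to 2000 UMIs, the scaling, the added counts, the minimum CPM, the count filter, the block and the set of libraries. Gates on thinned cells were chosen after seeing the data.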

Additional observations from a re-analysis of the deposited data

How the results depend on the processing

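With 1 library per condition, each difference between conditions rests on 1 pair of libraries, and depth limits the low genes: a count of 0 allows up to 3 UMIs of a class total. The comparison of mature DC with cDC2 was not run, since mature DC reached 30 cells in 1 library. Among results called in either setting, the alternative values of a receptor's log2 fold change between classes were counted: 225 kept their direction and side of the threshold, 38 fell short of it, 11 newly passed and 0 reversed. Of the log2 ratios between libraries the same counts were 280, 36, 49 and 3. The 3 that reversed did so after thinning to 2000 UMIs, for miR-146a-/- over WT: Il12rb1 in naive-like CD8 T cells (0.15 to -0.79), Il12rb1 in Treg (0.35 to -0.73) and Il2ra in NKT-like T cells (0.24 to -0.59). For the level of a receptor in its highest class, 38 alternative values stayed within the counting interval of the main value and 30 lay outside it. Il2ra in Treg, for instance, had a mean of 134 CPM in the main run and 159 CPM after thinning. The class with the highest mean changed for Il2rg, and for Il15ra and Il21r where mature DC had no value under a limit of 4000 features.

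Receptors higher past the fold for miR-146a-/- over WT numbered 5, and 3 with strict gates, 3 with loose gates and 3 with a prior of 5 counts. With strict gates DEN-CDHFD WT held 27 Treg, under the 30-cell minimum, so Treg had no value in that count. For DKO over miR-146a-/- they numbered 3, and 1 with loose gates. After thinning, 13 rather than 8 were lower for miR-146a-/- over WT and 7 rather than 3 for DKO over miR-146a-/-. For PD-1+ over PD-1- cells, receptors called numbered 4, and 2 with DESeq2, 2 with no library block and 2 to 6 when 1 library was left out. The calls lost with no block were Il7r (log2 fold change -1.05, and -1.16 in the main run) and Il18r1 (-0.65, and -0.68 in the main run). All genes called numbered 1333, and 757 with DESeq2, 2045 with no filter, 337 with no block, 524 after thinning and 489 to 1677 when 1 library was left out. For naive-like over PD-1- cells, receptors called numbered 8, and 4 with DESeq2, 5 after thinning, 5 with gates on thinned cells and 6 to 7 when 1 library was left out. All genes called numbered 3914, and 2147 with DESeq2 and 1667 after thinning. For NK over ILC1, all genes called numbered 4652, and 2493 after thinning. For Treg over conventional CD4 T cells, receptors called numbered 3, and 1 with no block and 1 to 4 when 1 library was left out. The calls lost with no block were Il12rb2 (log2 fold change -1.36, and -1.20 in the main run) and Il18r1 (0.51, and 0.59 in the main run). All genes called numbered 1226, and 805 with no block, 748 after thinning and 738 to 1222 when 1 library was left out. The cause was not tested.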

Other observations

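The values below lie outside the comparisons of T, NK and ILC1 classes. Neutrophils, with 19, 16, 25 and 17 cells and so below the 30-cell minimum in each library, had Il18rap at 81.6, 173, 116 and 72.5 CPM. Mature DC, with 6, 33, 8 and 20 cells, had Il15ra at 103, 152, 112 and 71.2 CPM and Il21r at 219, 256, 104 and 228 CPM. Il15ra was thus above every other class in each library. Il21r was below PD-1+ CD8 T cells in DEN-CDHFD WT (279.5 CPM) and miR-146a-/- (189 CPM). In the latter, with 8 mature DC, it was also below most lymphoid classes. Among these were conventional CD4 T cells (196 CPM), ILC1 (185), Treg (181), PD-1- non-naive CD8 T cells (165), B cells (152) and naive-like CD8 T cells (122). Plasmacytoid dendritic cells (36, 18, 24 and 22 cells) had Il7r at 258, 296, 248 and 352 CPM and Il21r at 191, 158, 194 and 197 CPM. Il21r in cDC2 was at 74.1, 129 and 159 CPM in the DEN-CDHFD WT, miR-146a-/- and DKO libraries. In cDC1, Il2rg was at 48.5, 117, 67.9 and 55.2 CPM and Il21r at 22.9, 49.5, 37.9 and 24.0 CPM, the DEN-CDHFD WT library being highest for both. Il12b, the gene of an interleukin-12 subunit, was at 1 UMI in cDC1 of young WT and went from 0.882 to 158 CPM to DEN-CDHFD WT.

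Patrolling monocytes had Il2rb at 71.7, 32.5, 19.0 and 25.4 CPM, and the 7 NK markers summed there to 299, 103, 109 and 131 CPM. The part of NK RNA in those Il2rb UMIs was not tested. Cells that met no gate had Il12rb2 at 142, 68.6, 31.8 and 47.3 CPM, Il7r at 259, 145, 123 and 134 CPM and Il2ra at 33.8, 14.4, 16.1 and 16.5 CPM, each highest in young WT.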
